A study of Mus musculus with 36 samples.

Results

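The cytosolic ribosomal protein genes were examined in RNA sequencing of primary mouse prostate organoids that carried an inducible FOXA1 construct or an empty control. Members were the protein-coding mouse genes with a standard Rpl or Rps symbol, plus Rpsa, Rplp0, Rplp1 and Rplp2. The symbol rule matched 88 genes, of which 5 were annotated as pseudogenes, and the other 83 are described here, out of 45232 genes in the count tables. They comprise 43 large subunit genes, 31 small subunit genes, 3 genes of the ribosomal stalk and 6 paralogues (Rps27l, Rpl22l1, Rpl7l1, Rpl39l, Rpl3l and Rpl10l). A filter on low counts passed 80 members among 18176 genes tested. The 3 that did not pass it, Rpl3l, Rpl10l and Rpl39l, had mean levels of at most 0.017 CPM (TMM-scaled counts relative to library size) and were given no test.

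The organoids carried wild-type FOXA1 (WT), the mutant FOXA1 FE255del, the mutant FOXA1 R219S or an empty vehicle (EV) in pCW plasmids, which are doxycycline-inducible, and dsRED-positive cells had been sorted. Collection at days 0, 1 and 11, in 3 replicates for every construct, gave 12 groups and 36 libraries. The labels give 500 ng/mL doxycycline for induction of FOXA1 joined to DsRED, and only the names of the deposited tables mark the day 0 libraries as made without it. Replicates were seeded in parallel from the sorted cells of each construct, so p-values measure only the spread between such parallel cultures, and a difference between constructs at day 0 is one between cultures before induction. The mouse strain, the age and the number of donor animals are not given in the sources used here.

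Each ribosome joins a large and a small subunit, and most subunit proteins are present in a single copy per particle, so their genes are usually expressed in step. Their messenger RNAs begin with a pyrimidine tract, the 5′ terminal oligopyrimidine motif (TOP), through which mTOR and the RNA-binding protein LARP1 control translation and stability. FOXA1 is a forkhead pioneer transcription factor of luminal prostate epithelium. The Foxa1 count was 414 ± 4.69 CPM in WT, 320.2 ± 27.1 CPM in FE255del and 309 ± 5.11 CPM in R219S organoids at day 1, against 227 ± 4.99 CPM in EV organoids (SD, n = 3 each). It checks the labels only as construct against EV at day 1, since a gene count does not show which construct a library carried. Foxa1 rose with every construct (edgeR quasi-likelihood test, log2 fold changes 0.87, 0.50 and 0.44, largest adjusted p = 1.01e-07), and its count does not separate transgene from endogenous RNA.

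Libraries held 61476938 to 102385337 counts, and the lowest correlation of log CPM between replicates of a group was 0.992. Summed CPM of 8 epithelial markers ran between 5412 and 15481, whereas 5 stromal markers together reached at most 35.03 CPM, 3 endothelial markers 6.99 CPM and 5 immune markers 8.86 CPM. Of the prostate markers Hoxb13 had 57.4 to 92.2 CPM, while Pbsn, an androgen-dependent luminal gene, had no count in any library. Replicate 2 of R219S at day 11 stood apart, with 6.02% of its counts in ribosomal protein genes against 5.18 and 5.08% in the other two, and 4.37% mitochondrial counts against 2.93 and 2.77%. Day 11 comparisons that involve R219S are therefore given with and without it. Replicate 2 of R219S at day 0 had the most counts of all libraries and the lowest mitochondrial share, 1.32% against 2.26 and 2.52% in the other two. Its share in ribosomal protein genes, 5.25%, was near their 5.14 and 5.20%.

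Across all 36 libraries the tested members had mean levels between 14.6 CPM (Rpl24, a large subunit protein) and 2725 CPM (Rplp0, the scaffold of the stalk), with a median of 521 CPM. Per kilobase of the principal transcript the levels ran from 21.6 to 2039 CPM per kb, with a median of 775. Members varied little between groups: the highest group mean was 1.18 to 2.11 times the lowest, with a median of 1.398. In 74 of the 80 members the lowest of the 12 group means was that of R219S at day 1, whereas 34 members had their highest mean in FE255del at day 11 and 17 in R219S at day 11. Without R219S replicate 2 of day 11 these numbers were 72, 42 and 1. Ribosomal proteins have many processed pseudogenes, and how reads that fit several copies were counted is not given in the sources used here, so levels of single members are uncertain. The 267 genes named as ribosomal protein pseudogenes held counts equal to 1.65% of the members' counts (1.57 to 1.74% over libraries).

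The members together took a smaller share of all counts in R219S organoids at day 1 than in any other group. The share was 5.65 ± 0.29% in WT, 5.75 ± 0.07% in FE255del and 4.44 ± 0.03% in R219S, against 5.18 ± 0.21% in EV organoids at day 1 (SD, n = 3 each). The 3 R219S libraries, between 4.40 and 4.47%, lay below all 33 other libraries, the lowest of which had 4.93%. Over the TMM-scaled library size used in the tests, the day 1 means were 5.32% in WT, 5.49% in FE255del and 4.38% in R219S, against 5.31% in EV organoids. At day 0 the share was 5.48 ± 0.12% in WT, 5.22 ± 0.17% in FE255del and 5.20 ± 0.05% in R219S, against 5.02 ± 0.10% in EV organoids. At day 11 it was 5.53 ± 0.18% in WT, 5.97 ± 0.20% in FE255del and 5.43 ± 0.51% in R219S, against 5.70 ± 0.11% in EV organoids. R219S replicates 1 and 3, at 5.18 and 5.08%, lay below every other library of day 11 in this share of all counts. Replicate 2, at 6.02%, lay within the FE255del range, and the R219S mean without replicate 2 was 5.13%. Over the TMM-scaled library size that order did not hold: WT replicate 1 had 5.12%, below R219S replicates 1 and 3 at 5.36 and 5.16%. In bulk RNA, fewer cells of a type and less of these RNAs per cell cannot be told apart.

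**Figure D1:**
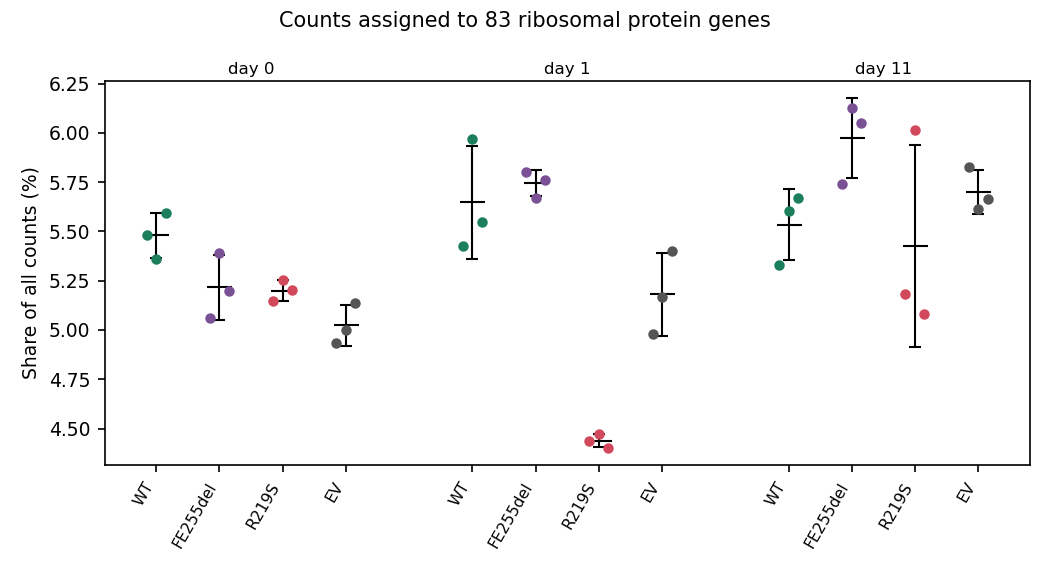
Share of all counts (%) assigned to the 83 ribosomal protein genes in each library (points), with the mean and SD of each group of 3, by construct within days 0, 1 and 11. The 3 R219S libraries of day 1 lie between 4.40 and 4.47%, below every other library.

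R219S organoids at day 1 had lower levels of nearly all ribosomal protein genes than EV organoids. Of the 80 members 74 fell and 0 rose, beside 25.3% of all tested genes that fell and 23.2% that rose (edgeR quasi-likelihood test, adjusted p under 0.05 over all genes tested). The median log2 fold change of the members was -0.29, a fold of 0.815, beside -0.04 for all genes, and single members ran between -0.43 and 0.09. The fall took in 42 of 43 large subunit genes (median -0.31), 30 of 31 small subunit genes (median -0.31), 1 of 3 stalk genes and 1 of 3 tested paralogues. In 74 members all 3 R219S libraries were below all 3 EV libraries, which held for 32% of all genes.

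Rps12, a protein of the small subunit beak, had 629, 640.2 and 627 CPM in R219S organoids, against 804, 863 and 881 CPM in EV organoids. The groups did not overlap, and Rps12 fell by 0.43 on the log2 scale (SE 0.05, adjusted p = 1.74e-08). Rpl10, a large subunit protein that joins late, in the cytoplasm, had 758, 763 and 757 CPM in R219S, against 964, 1053 and 1028 CPM in EV organoids. Its log2 fold change of -0.42 (SE 0.05) had the smallest adjusted p among the members, 2.85e-09. Rpl28, a large subunit protein, had 392, 384 and 381 CPM in R219S, against 472, 524 and 546 CPM in EV organoids, and fell by 0.42 on the log2 scale (SE 0.06, adjusted p = 1.69e-06). In Rpl10 and Rpl28, too, every R219S value was under the lowest EV value. Rpl5 and Rpl11, which bind MDM2 as free proteins with the 5S ribosomal RNA, fell by 0.30 and 0.33 on the log2 scale (adjusted p = 8.66e-05 and 3.89e-05). Among the smallest falls, that of Rplp2 (-0.17) was no longer called without EV replicate 3 (adjusted p = 0.0748), nor was that of Rpl7 (-0.16, adjusted p = 0.0503). Rpl39 (-0.16) was no longer called without EV replicate 2, R219S replicate 1 or R219S replicate 3 (adjusted p = 0.0785, 0.0678 and 0.0553).

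The 6 members that did not pass were Rplp0, Rplp1, Rps6, Rpl19, Rps27l and Rpl7l1. At day 0 Rps27l, Rpl7l1, Rplp1 and Rpl19 were called higher in R219S than in EV organoids (0.28, 0.20, 0.19 and 0.18). The day 0 values of Rplp0 and Rps6, 0.12 and 0.11, did not pass. All 6 were called lower in R219S when its change since day 0 was set against that of EV, as given below. Rplp1, an acidic stalk protein that helps recruit elongation factors, had 903, 873 and 875 CPM in R219S, against 857, 919 and 974 CPM in EV organoids, a log2 fold change of -0.05 (SE 0.06, adjusted p = 0.538). Rps6, a substrate of the S6 kinases, had 592, 604 and 585 CPM in R219S, against 592, 631 and 662 CPM in EV organoids, a log2 fold change of -0.08 (SE 0.05, adjusted p = 0.23). In both genes the groups overlapped. Rplp0 stood at -0.12 (SE 0.07) and Rpl19 at -0.08 (SE 0.06).

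**Figure D2:**
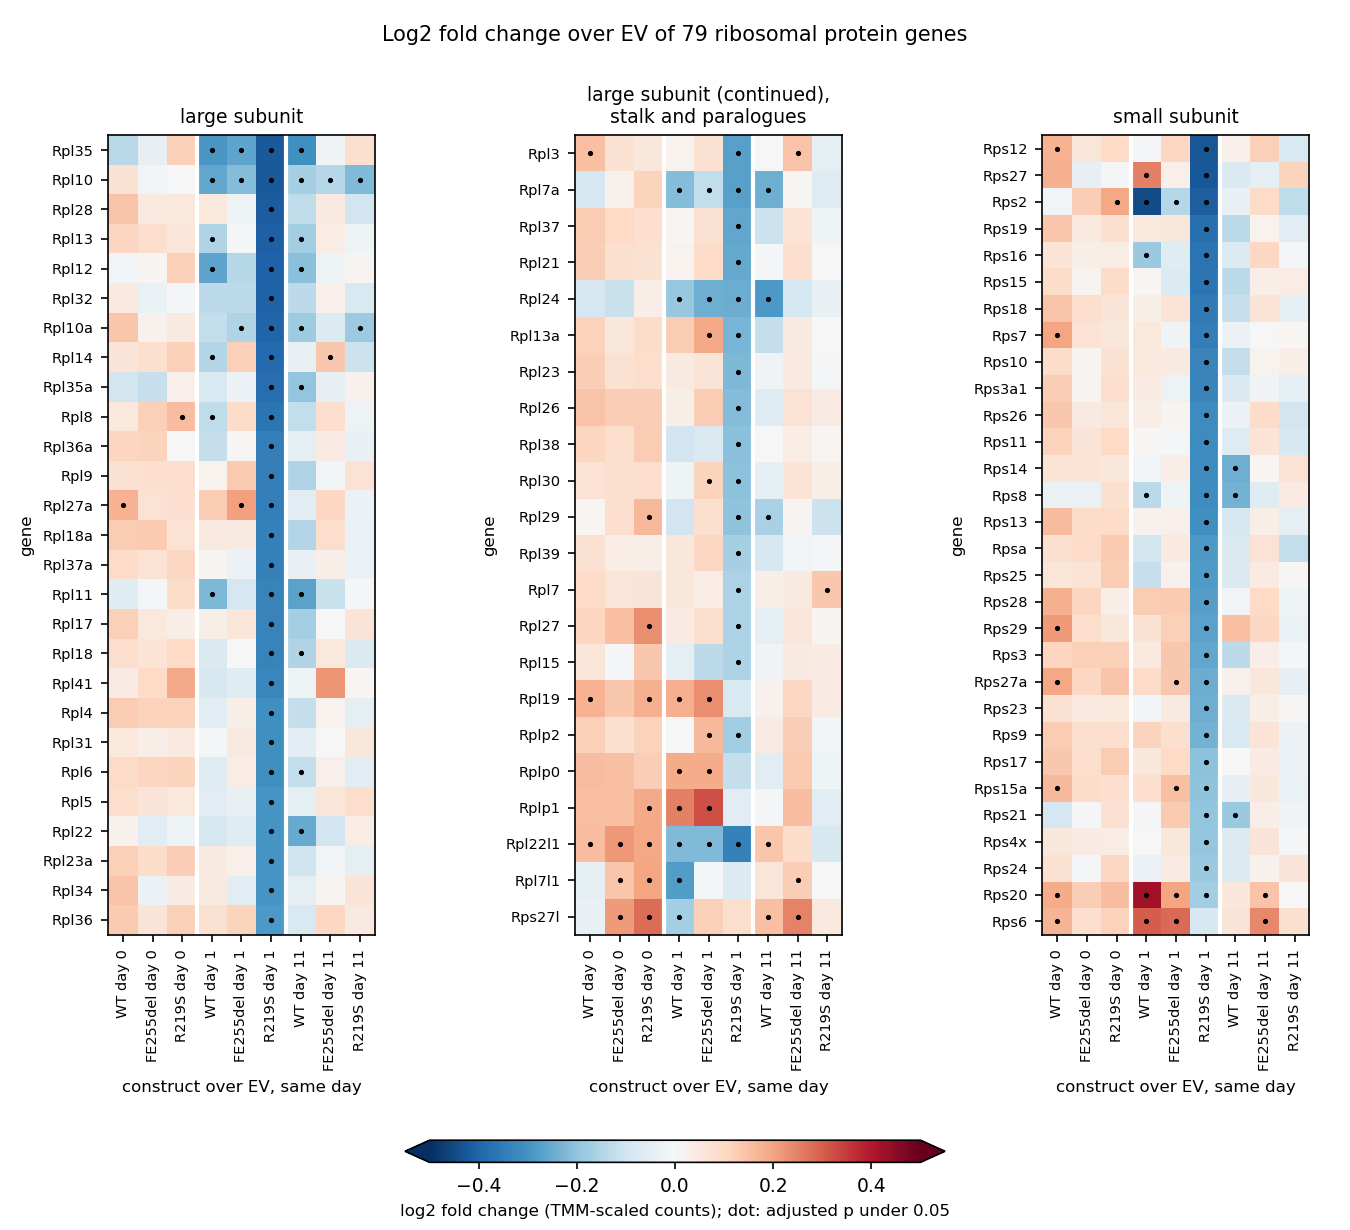
Log2 fold change over EV of the same day for 79 of the 80 tested ribosomal protein genes (rows) in WT, FE255del and R219S organoids at days 0, 1 and 11 (columns), with blue for lower and red for higher than EV. Nearly the whole R219S column of day 1 is blue, and 74 of the 80 tested members were lower there at an adjusted p under 0.05.

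The fall was seen after induction: at day 0 no member passed the test as lower in R219S than in EV organoids by edgeR's quasi-likelihood test, with an unadjusted p under 0.05 in 0 members that were lower and in 23 that were higher. The R219S cultures began above EV, with a member median of 0.09 at day 0, beside 0.01 for all genes. The WT and FE255del cultures did so too, with member medians of 0.11 and 0.07. At day 0, 9 of the 80 members were higher, beside 13.2% of all tested genes. That number was 3 to 9 when 1 library was left out. This day 0 difference is part of the next comparison. Relative to the change of EV organoids over the same time, 79 of 80 members fell and 0 rose in R219S organoids between day 0 and day 1, beside 23.3 and 16.1% of all tested genes (edgeR test of the difference between the changes). The median of this difference was -0.39 on the log2 scale, beside -0.05 for all genes, and the range was -0.61 to -0.19. Rps2, at the messenger RNA entry of the small subunit, had the largest difference, -0.61 (SE 0.08, adjusted p = 6.94e-08). Rps2 had 956, 959.8 and 915 CPM in R219S organoids at day 1, against 1385, 1425 and 1431 CPM at day 0. In EV organoids it had 1180.0, 1289 and 1295 CPM at day 1, against 1195, 1207 and 1305 CPM at day 0. The days did not overlap in R219S and did in EV. Rpl39, a short protein of the exit tunnel, was the member that did not pass (-0.19, adjusted p = 0.0587). The calls of Rplp0, Rplp1 and Rps27l were each lost without any 1 of 8 of the 12 libraries (largest adjusted p = 0.133, 0.11 and 0.11, each without EV day 1 replicate 3).

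Against WT organoids of day 1, 69 members fell and 2 rose in R219S organoids, beside 29.1 and 30.5% of all tested genes. The median was -0.27 for the members and -0.01 for all genes. Rps27, a zinc-finger protein of the small subunit, had 378, 376 and 377 CPM in R219S, against 570.0, 646 and 589 CPM in WT organoids, and fell by 0.67 on the log2 scale (SE 0.07, adjusted p = 4.54e-10). Rps20, a protein of the small subunit head, had 842, 828 and 820.0 CPM in R219S, against 1176, 1361 and 1218 CPM in WT organoids, and fell by 0.59 (SE 0.06, adjusted p = 8.64e-11). R219S and WT did not overlap in either gene. Of 18176 tested genes, R219S lay wholly below WT in 5745 and wholly above in 6065, beside 73 and 2 of the 80 members. The members higher in R219S than in WT were the paralogues Rps27l (0.26, SE 0.05) and Rpl7l1 (0.21, SE 0.05). Both were also higher before induction: at day 0 Rps27l had 205 ± 8.06 CPM in R219S, against 164 ± 7.02 CPM in WT organoids, and Rpl7l1 had 175 ± 3.71 CPM in R219S, against 148 ± 9.66 CPM in WT organoids (SD, n = 3 each).

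The starts of the genes are shown because the members moved together and because the TOP motif lies at the start of the RNA. RefSeq windows on GRCm38.p6, from 250 bases before to 50 bases after a start, were at hand for 63 of the 83 members. A run of at least 8 pyrimidines across the start base was present in 17 of them (27%), against 4.63% of 11898 other tested genes. Of the tested members with such a run 16 of 17 fell in R219S at day 1 (median log2 fold change -0.29), and of those with a shorter run or none 39 of 43 fell (median -0.31). Each line below holds 60 bases before and 20 bases from the annotated start on the gene's own strand, and capitals mark the pyrimidine run across the start where it had at least 8 bases. Rpl7a, Rpl27a and Rpl34 are shown for their long runs, and Rps6, Rplp0 and Rps27l as members that did not pass in R219S against EV at day 1. Relative to the change of EV organoids since day 0, Rps6, Rplp0 and Rps27l were called lower in R219S (-0.20, -0.24 and -0.19).
Rpl7a (chr2:26910747-26910826, plus strand): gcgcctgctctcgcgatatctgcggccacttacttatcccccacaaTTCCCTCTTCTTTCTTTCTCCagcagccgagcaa
Rpl27a (chr7:109519135-109519214, plus strand): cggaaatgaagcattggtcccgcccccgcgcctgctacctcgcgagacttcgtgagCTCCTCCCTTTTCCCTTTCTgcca
Rpl34 (chr3:130730318-130730397, minus strand): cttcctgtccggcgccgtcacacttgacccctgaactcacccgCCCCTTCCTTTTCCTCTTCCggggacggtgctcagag
Rps6 (chr4:86857348-86857427, minus strand): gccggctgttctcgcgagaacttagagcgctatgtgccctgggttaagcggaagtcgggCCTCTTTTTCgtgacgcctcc
Rplp0 (chr5:115559407-115559486, plus strand): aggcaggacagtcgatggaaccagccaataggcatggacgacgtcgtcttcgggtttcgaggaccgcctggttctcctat
Rps27l (chr9:66946026-66946105, plus strand): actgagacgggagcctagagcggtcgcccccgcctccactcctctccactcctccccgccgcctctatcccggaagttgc
The runs had 21 bases in Rpl7a, 20 in Rpl27a, 20 in Rpl34 and 10 in Rps6, while Rplp0 and Rps27l had none across the annotated start. In R219S at day 1 Rpl7a fell by 0.27, Rpl27a by 0.35 and Rpl34 by 0.29 on the log2 scale. The starts used in these cells were not measured here.

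Motifs were searched as letters on both strands of the same windows, and no motif contains another. The forkhead core TGTTTNC was found in 7 of 63 members (11.1%), against 18.3% of the other genes. The ETS core CCGGAAG was found in 26 members (41.3%), against 17.9%. The palindrome CTCGCGAG was found in 7 members (11.1%), against 1.86%. TATAAA was found in 11.1% of members against 9.87%, and the E-box CACGTG in 9.52% against 10.9%. A match describes letters in the window, not binding.

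In WT organoids at day 1 the members moved in both directions. Compared with EV organoids 6 members rose and 15 fell, beside 29.6 and 30.9% of all tested genes, and the median log2 fold change was 0.00 for the members and -0.01 for all genes. Rps20 had 1176, 1361 and 1218 CPM in WT, against 884, 938 and 983 CPM in EV organoids, and rose by 0.42 on the log2 scale (SE 0.06, adjusted p = 1.17e-07). Rps6 had 732, 825 and 766 CPM in WT, against 592, 631 and 662 CPM in EV organoids, and rose by 0.30 (SE 0.05, adjusted p = 1.14e-05). Rps2 had 871, 993 and 899.6 CPM in WT, against 1180.0, 1289 and 1295 CPM in EV organoids, and fell by 0.45 (SE 0.05, adjusted p = 9.45e-09). WT and EV did not overlap in these 3 genes. Of 18176 tested genes, WT lay wholly below EV in 5980 and wholly above in 5719, beside 10 and 5 of the 80 members. The stalk genes Rplp0 and Rplp1 rose (0.18 and 0.25), whereas Rplp2 stood at 0.00. The call of Rplp0 was lost without EV replicate 1 (adjusted p = 0.12) or WT replicate 2 (0.136). All 3 tested paralogues fell, Rpl7l1 by 0.28, Rpl22l1 by 0.22 and Rps27l by 0.17, the last not without WT replicate 1 (adjusted p = 0.0717).

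The balance of higher and lower calls in WT at day 1 depended on the scaling of the libraries. Scaling by total count gave 43 members higher and 5 lower, and RLE size factors gave 11 higher and 9 lower. Total-count scaling moved the median of all genes by 0.12 in this comparison, and the members' median became 0.13. Without WT replicate 1, 11 members rose and 8 fell, and without EV replicate 3, 9 rose and 9 fell.

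In FE255del organoids at day 1, compared with the same EV libraries, 11 members rose and 7 fell, beside 25.5 and 27.7% of all tested genes. The median was 0.04 for the members and -0.03 for all genes. Rplp1 had 1173, 1130.3 and 1138 CPM in FE255del, against 857, 919 and 974 CPM in EV organoids, and rose by 0.32 (SE 0.06, adjusted p = 6.56e-05). Rps6 had 765, 766 and 762 CPM in FE255del and rose by 0.28 (SE 0.05, adjusted p = 3.71e-05). Rpl10 had 849.8, 873 and 899.6 CPM in FE255del, against 964, 1053 and 1028 CPM in EV organoids, and fell by 0.22 (SE 0.05, adjusted p = 0.000212). FE255del values of these 3 genes lay outside the EV range. Of 18176 tested genes, FE255del lay wholly below EV in 5956 and wholly above in 5330, beside 10 and 24 of the 80 members. All 3 stalk genes rose, though Rplp0 and Rplp2 not without EV replicate 1 (adjusted p = 0.132 and 0.0845). With total-count scaling 48 members were higher and 3 lower, and with RLE 17 were higher and 4 lower. Total-count scaling moved the median of all genes by 0.10 in this comparison. Without EV replicate 1, 5 rose, and 4 fell without EV replicate 3 (4, 4 and 4 without FE255del replicates 1, 2 and 3).

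Rpl10 was below EV with every construct at day 1, by 0.26 in WT, 0.22 in FE255del and 0.42 in R219S on the log2 scale. It was also below EV at day 11, by 0.17 in WT, 0.14 in FE255del and 0.22 in R219S (adjusted p = 0.00451, 0.0136 and 0.000359 in that order). Without R219S replicate 2 the log2 fold change in R219S was -0.30 (adjusted p = 7.52e-07). Rpl10 had 838, 870.0 and 886 CPM in WT, 855, 884 and 897 CPM in FE255del and 791, 927 and 783 CPM in R219S, against 947, 982 and 981 CPM in EV organoids at day 11. None of the WT, FE255del or R219S libraries reached the lowest EV value. The same held at day 11 for 4059 of 18176 tested genes in WT, 3827 in FE255del and 2988 in R219S. The call in FE255del at day 11 was lost without its replicate 1 (adjusted p = 0.0536), and the comparisons share the EV libraries of their day.

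**Figure D3:**
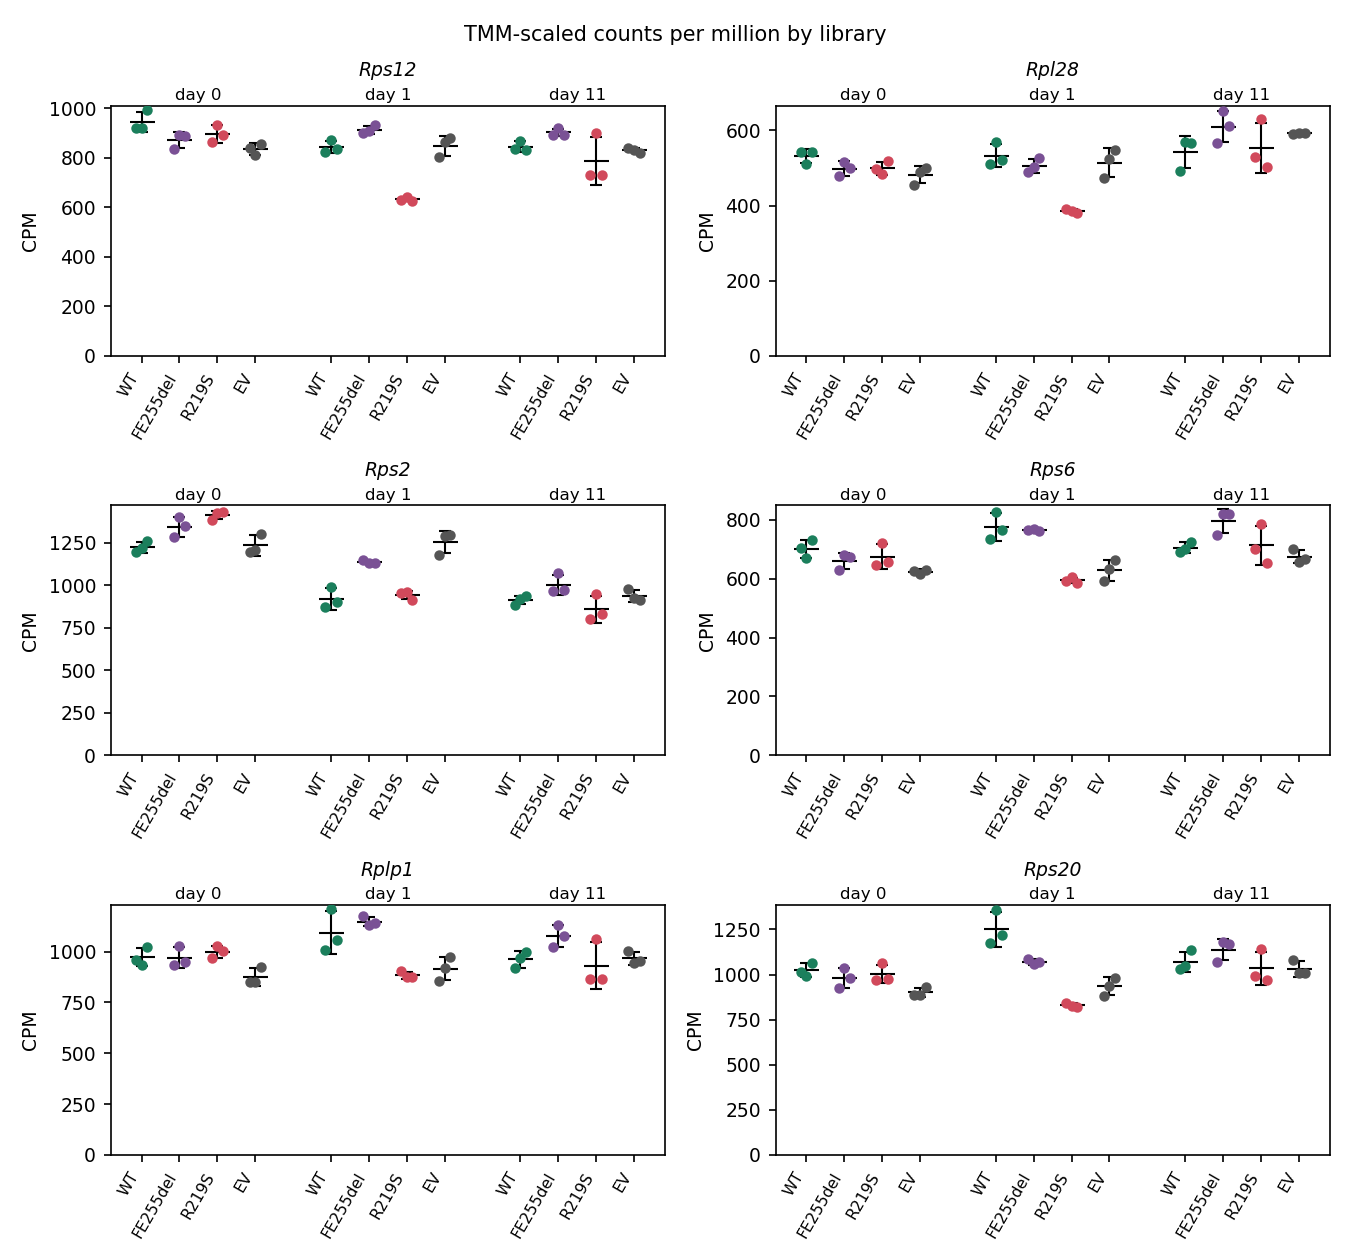
TMM-scaled CPM of 6 members in each library (points), with the mean and SD of each group of 3, by construct within days 0, 1 and 11. Rps12 and Rpl28 show 3 low R219S libraries at day 1 (Rps12 at 629, 640.2 and 627 CPM), whereas R219S and EV overlap at day 1 in Rps6 and Rplp1.

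FE255del organoids were also set against WT organoids of day 1. Against WT, 8 members rose and 2 fell in FE255del, beside 21.8 and 19.9% of all tested genes, with medians of 0.05 for the members and 0.00 for all genes. Rps2 had 1147, 1132 and 1133 CPM in FE255del, against 871, 993 and 899.6 CPM in WT organoids, and rose by 0.30 with no overlap (SE 0.05, adjusted p = 2.21e-05). FE255del lay wholly above WT in 4829 of 18176 tested genes. The paralogues Rps27l and Rpl7l1 were higher in FE255del as well (0.29 and 0.27). At day 0 Rps27l already had 195 ± 9.49 CPM in FE255del, against 164 ± 7.02 CPM in WT organoids, and Rpl7l1 168 ± 6.32 CPM in FE255del, against 148 ± 9.66 CPM in WT organoids (SD, n = 3 each). Rps20 and Rps27 fell, by 0.22 and 0.22, Rps27 not without WT replicate 2 (adjusted p = 0.06). The number that rose was 18 without WT replicate 2 and 5 without WT replicate 3.

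Relative to the change of EV organoids from day 0 to day 1, 1 member rose and 14 fell in WT organoids, beside 20.2 and 23.8% of all tested genes. In FE255del organoids 1 rose and 3 fell, beside 17.4 and 22.9%. The member that rose in WT was Rps20 (0.24), a call lost without EV day 0 replicate 3, WT day 0 replicate 2, EV day 1 replicate 1 or WT day 1 replicate 2 (adjusted p = 0.0536, 0.0526, 0.0676 and 0.0607). In FE255del it was Rps6 (0.20), lost without EV day 0 replicate 1 or 3, FE255del day 0 replicate 1, or EV day 1 replicate 1 or 2 (largest adjusted p = 0.124). Rpl22l1, Rps2 and Rpl10 fell in FE255del, by 0.44, 0.26 and 0.20 on the log2 scale (adjusted p = 8.89e-06, 0.00581 and 0.0157). The call of Rpl10 was lost without EV day 1 replicate 2 or FE255del day 1 replicate 1 (adjusted p = 0.0559 and 0.128). With total-count scaling the counts were 3 higher and 4 lower in WT and 17 higher and 1 lower in FE255del, where the median of all genes moved by 0.12. In WT the number that fell was 7 without EV day 0 replicate 1, 8 without EV day 0 replicate 2, 5 without WT day 0 replicate 3, and 9 and 4 without EV day 1 replicates 2 and 3. It was 5 and 5 without WT day 1 replicates 1 and 3.

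The paralogues were set against their counterparts within each library, a ratio that does not depend on scaling between libraries. Rps27l, a small subunit paralogue known as a p53 target, held 49.0 ± 0.77% of the count of Rps27 in R219S organoids at day 1. The ratio was 25.7 ± 0.31% in WT and 36.7 ± 0.05% in FE255del, against 34.4 ± 0.25% in EV organoids (SD, n = 3 each). All 3 R219S libraries of day 1 were above every other library in this ratio. At day 0 the ratio was 29.0 ± 2.23% in WT, 40.1 ± 1.49% in FE255del and 41.1 ± 2.19% in R219S, against 33.6 ± 0.99% in EV organoids. All R219S and FE255del libraries of day 0 lay above those of EV, and all WT libraries lay below them. Rps27l itself had 188, 185 and 182 CPM in R219S, against 165, 176 and 181 CPM in EV organoids at day 1 (log2 fold change 0.09, adjusted p = 0.18), while Rps27 fell by 0.42 (adjusted p = 5.04e-06). By day 11 the ratio was 20.2 ± 0.97% in WT, 21.2 ± 1.23% in FE255del and 16.7 ± 1.75% in R219S (17.2% without replicate 2), against 17.3 ± 1.04% in EV organoids.

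Rpl22l1, whose RNA is repressed by Rpl22 in mice, was below EV with all 3 constructs at day 1. At day 0 it was called above EV in WT, FE255del and R219S (0.16, 0.22 and 0.19). The day 0 calls in WT and R219S were lost without some single libraries. It had 123, 133 and 126 CPM in WT, 129.7, 124 and 127 CPM in FE255del and 121, 117 and 114 CPM in R219S, against 141, 150.3 and 153 CPM in EV organoids. No construct overlapped with EV, and the log2 fold changes were -0.22 in WT, -0.22 in FE255del and -0.34 in R219S (adjusted p = 0.000456, 0.000508 and 1.36e-06). Its ratio to Rpl22 at day 1 was 30.3 ± 0.96% in WT, 29.6 ± 0.48% in FE255del and 32.1 ± 0.57% in R219S, against 33.1 ± 0.55% in EV organoids. At day 0 the ratio was 35.3, 38.9 and 37.4% in that order, against 32.2% in EV organoids. At day 11 it was 32.7% in WT and 28.4% in FE255del, against 24.9% in EV organoids. R219S replicates 1, 2 and 3 had 20.8, 23.2 and 25.1% at day 11. Rpl7l1, related to a yeast factor of large subunit assembly, held between 6.16 and 9.15% of the count of Rpl7 over the group means. The lowest mean was that of R219S at day 11, where replicates 1, 2 and 3 had 6.45, 5.68 and 6.35%.

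**Figure D4:**
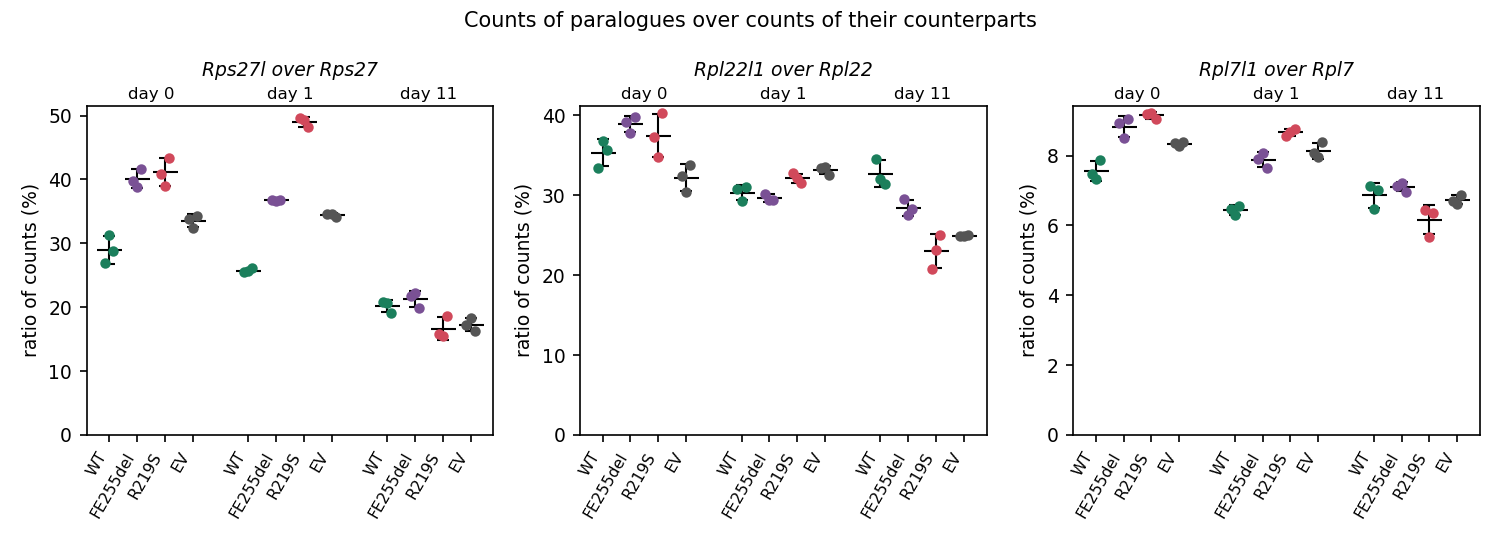
Count of each tested paralogue as a percentage of the count of its counterpart in the same library (points), with the mean and SD of each group of 3, by construct within days 0, 1 and 11. Rps27l over Rps27 is highest in R219S at day 1 (49.0 ± 0.77%).

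Before induction most members stood slightly above EV in the cultures of all 3 constructs. The log2 fold change was positive in 69 of 80 members in WT, 67 in FE255del and 76 in R219S. The member medians were 0.11, 0.07 and 0.09, beside 0.00, 0.00 and 0.01 for all genes. These comparisons share the EV libraries of day 0, and few members passed the test. At day 0, 11 members rose and 0 fell in WT against EV organoids, beside 9.9 and 12.8% of all tested genes, with a median log2 fold change of 0.11. In FE255del 3 rose and 0 fell (11.1 and 9.72% of all genes), and these were the 3 tested paralogues, Rpl22l1 (0.22), Rps27l (0.21) and Rpl7l1 (0.14). The call of Rpl7l1 was lost without EV replicate 1, 2 or 3 or FE255del replicate 2 or 3 (largest adjusted p = 0.199). In R219S 9 rose and 0 fell (13.2 and 6.92% of all genes), led by Rps27l with 196, 207 and 212 CPM in R219S, against 168, 162 and 176 CPM in EV organoids (0.28, SE 0.05, adjusted p = 0.000272). These counts depended on single libraries. In WT the number that rose was 2 and 1 without EV replicates 1 and 2, and 5 and 1 without WT replicates 1 and 3. In R219S it was 4 and 3 without EV replicates 1 and 2, and 5 and 5 without R219S replicates 2 and 3.

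In EV organoids no member passed between day 1 and day 0 by edgeR (1 had an unadjusted p under 0.05, and DESeq2 called 0), beside 0.259% of all genes higher and 1.17% lower. Between day 11 and day 0, 49 members rose and 3 fell in EV organoids, beside 23.1 and 24.6% of all tested genes, with medians of 0.17 for the members and 0.00 for all genes. Since the day 0 libraries are marked as made without doxycycline, time in culture and doxycycline cannot be told apart in this comparison. Rps27 had 774, 691 and 749 CPM at day 11, against 495, 500.1 and 513 CPM at day 0, and rose by 0.55 (SE 0.07, adjusted p = 6.25e-08). Rps19, mutated in human Diamond-Blackfan anaemia, rose by 0.37 and the large subunit gene Rpl37 by 0.34 (adjusted p = 2.49e-06 and 5.79e-06). Rps2, Rps27l and Rpl7l1 fell, by 0.40, 0.41 and 0.20. Rps27l had 133, 127 and 122 CPM at day 11, against 168, 162 and 176 CPM at day 0. It and its counterpart Rps27 thus moved in opposite directions, with no overlap between days in either gene. Day 11 lay wholly above day 0 in 4807 and wholly below in 5123 of 18176 tested genes.

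At day 11 WT organoids had 2 members that rose and 17 that fell against EV, beside 21 and 19.7% of all tested genes, and the median was -0.07 for the members and 0.01 for all genes. Rpl7a, Rpl22 and Rpl35, all of the large subunit, fell by 0.25, 0.25 and 0.31 on the log2 scale (adjusted p = 0.000209, 0.00025 and 0.000785). The paralogues Rps27l and Rpl22l1 rose (0.15 and 0.14), but neither without EV replicate 2 (adjusted p = 0.0536 and 0.0943) or EV replicate 3 (0.115 and 0.0862), nor Rpl22l1 without WT replicate 3 (0.135). Total-count scaling gave 5 higher and 13 lower. The number that fell was 8 and 9 without EV replicates 1 and 3, and 7 without WT replicate 1. In FE255del organoids 6 rose and 1 fell, beside 22.6 and 19.6%, led by Rps27l (0.25, adjusted p = 0.000209) and Rps6 (0.24, adjusted p = 0.000465). The number that rose was 2 and 2 without EV replicates 2 and 3, and 10, 2 and 2 without FE255del replicates 1, 2 and 3.

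In R219S organoids at day 11, 1 member rose and 2 fell against EV, beside 17.7 and 14.4% of all tested genes. These shares are those of the main fit, with all libraries and TMM scaling. Without R219S replicate 2, the library that stood apart, 22 members fell and 0 rose. Total-count scaling with all libraries gave 19 members lower and 0 higher, and moved the median of all genes by -0.05. The number that fell was 1 without EV replicate 2, and 1 and 1 without R219S replicates 1 and 3. Relative to the change of EV organoids since day 0, 9 members fell and 0 rose in R219S (14.7 and 12.4% of all genes), led by Rps2 (-0.32, SE 0.08, adjusted p = 0.00171). Without R219S day 11 replicate 2 the difference in Rps2 was -0.40 (adjusted p = 6.18e-05). The number of members that fell was 43 without R219S day 11 replicate 2, 5 without EV day 0 replicate 2, 5 without EV day 11 replicate 1, and 4 and 5 without R219S day 11 replicates 1 and 3.

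The same comparison of changes gave 14 lower and 0 higher in WT organoids (10.5 and 10.9% of all genes). The number lower was 8 without EV day 0 replicate 1, 8 and 6 without WT day 0 replicates 1 and 3, and 5 and 22 without WT day 11 replicates 1 and 3. In FE255del organoids edgeR called 0 lower and 0 higher, with 0 at an unadjusted p under 0.05 and 0 called by DESeq2, beside 11.1 and 9.44% of all genes.

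Both mutants were set against WT at day 11. In FE255del organoids 15 members rose and 0 fell against WT, beside 9.75 and 7.92% of all tested genes, with a median of 0.14 for the members and 0.00 for all genes. Rpl7a had 881, 963 and 894 CPM in FE255del, against 717, 773 and 807 CPM in WT organoids, and rose by 0.25 with no overlap (SE 0.05, adjusted p = 0.000442). FE255del lay wholly above WT in 2609 of 18176 tested genes. The number that rose was 3, 6 and 24 without WT replicates 1, 2 and 3, and 32, 4 and 5 without FE255del replicates 1, 2 and 3. In R219S organoids 14 rose and 2 fell against WT, beside 24.8 and 24.1%, with Rpl22 and Rpl35 higher by 0.29 and 0.39 (adjusted p = 3.22e-05 and 3.43e-05). Without R219S replicate 2 these log2 fold changes were 0.22 and 0.25 (adjusted p = 0.0012 and 0.00102). The balance of directions turned without that library: 4 rose and 14 fell. The number that rose was 31 without R219S replicate 3 and 8 without WT replicate 1. Total-count scaling gave 6 higher and 16 lower, and moved the median of all genes by -0.09.

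Genes of related function were read from lists beside the members at day 1. Of all tested genes 23.2% rose and 25.3% fell in R219S against EV organoids. Of 19 other mRNAs with a TOP motif 14 fell and 2 rose in R219S, with a median of -0.19. The poly(A)-binding protein gene Pabpc1 fell by 0.35, the elongation factor genes Eef2 and Eef1a1 by 0.25 and 0.19, and Tpt1 by 0.27, while Vim (4.18) and Hnrnpa1 (0.29) rose. Of 53 genes of ribosome biogenesis 17 rose and 7 fell in R219S, with a median of 0.01. Of 76 mitochondrial ribosomal protein genes 18 rose and 8 fell, with a median of 0.04. In WT organoids 46 biogenesis genes fell and 2 rose against EV, beside 30.9 and 29.6% of all tested genes, with a median of -0.29, including nucleolin, Ncl (-0.41), and the methyltransferase gene Fbl (-0.41). In FE255del 6 rose and 5 fell, beside 25.5 and 27.7%, with a median of -0.02.

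Myc, a driver of ribosome biogenesis, had 100.5 ± 0.813 CPM in WT, 143 ± 6.58 CPM in FE255del and 133 ± 7.6 CPM in R219S, against 169 ± 4.88 CPM in EV organoids at day 1 (SD, n = 3 each). It fell by 0.75, 0.25 and 0.35 on the log2 scale in WT, FE255del and R219S (adjusted p = 1.53e-17, 3.11e-06 and 5.86e-09). In R219S Larp1 fell by 0.13 and Eif4ebp1, a translation repressor under mTOR, by 0.38, and Mtor stood at -0.15 (adjusted p = 0.207). Rrn3, an initiation factor of RNA polymerase I, had 166 ± 4.22 CPM in R219S, against 69.2 ± 0.453 CPM in EV organoids, and rose by 1.26 (SE 0.04, adjusted p = 6.3e-24).

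Of 20 genes of the p53 response, 13 rose and 1 fell in R219S at day 1, beside 23.2 and 25.3% of all tested genes, with a median of 0.18. The cell cycle inhibitor gene Cdkn1a rose by 0.19, and Mdm2, whose product degrades p53, stood at 0.00 (adjusted p = 0.96). Summed CPM of the epithelial markers was also lower at day 1, at 6328 to 6469.8 in WT, 5412 to 5807 in FE255del and 8003 to 8158 in R219S, against 11989 to 12928 in EV organoids. WT and FE255del were below EV before induction too. At day 0 the sums were 10193 to 10939 in WT, 10177 to 10635 in FE255del and 12158 to 12673 in R219S, against 12204 to 12506 in EV organoids. Stromal markers summed to 5.55 to 6.35 CPM in R219S, against 2.26 to 3.37 CPM in EV organoids, with Col1a2 at most 0.0525 CPM in any library. The part of these shifts in the members' levels was not tested.

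**Figure D5:**
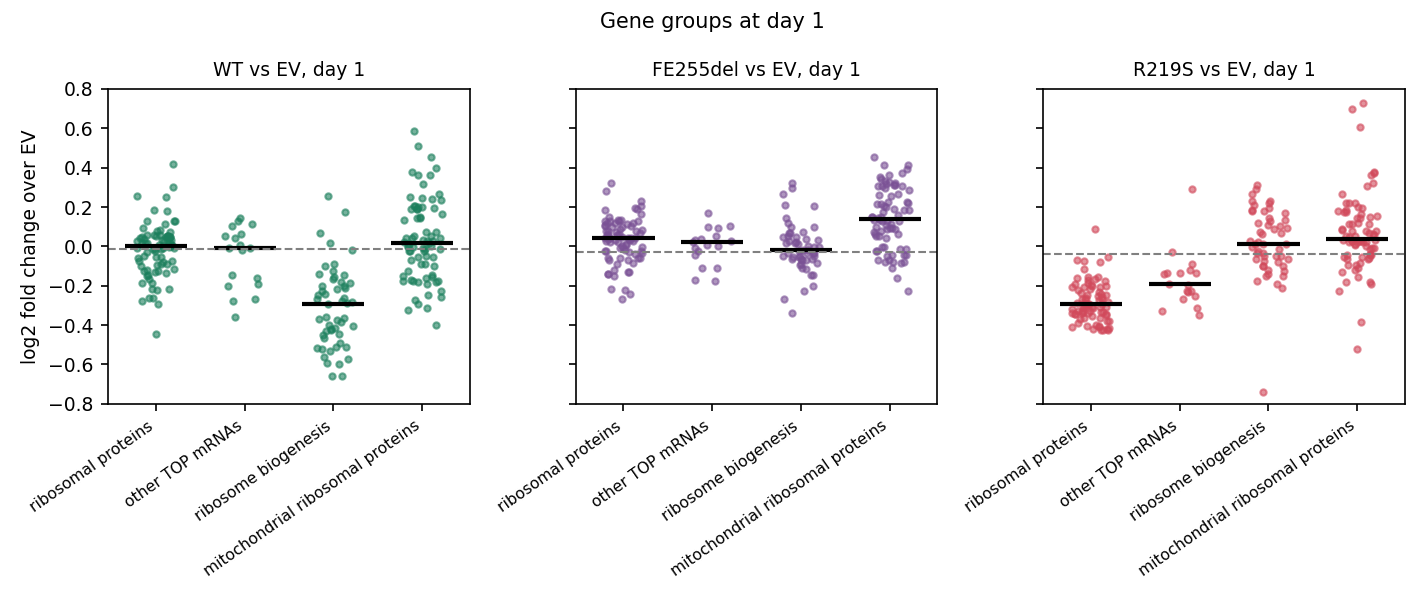
Log2 fold change over EV at day 1 for genes of 4 lists (points), with the median of each list, in WT, FE255del and R219S organoids. In R219S the medians are -0.29 for ribosomal proteins and -0.19 for other TOP mRNAs, and in WT the median of ribosome biogenesis genes is -0.29; 1 TOP gene lies beyond the axis in each panel and 1 biogenesis gene in R219S.

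The lists were also read at other times. In EV organoids at day 11 against day 0, when 49 members rose, 39 biogenesis genes and 50 mitochondrial ribosomal protein genes fell, beside 24.6% of all tested genes (medians -0.17 and -0.20). In R219S against EV at day 0, when 9 members rose, 46 biogenesis genes and 55 mitochondrial ribosomal protein genes rose, beside 13.2% of all tested genes (medians 0.26 and 0.18).

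The members moved largely in step over the 12 group means, of which R219S at day 1 stood far from the rest. The members' mean log2 deviation was -0.29 there, against -0.06 to 0.14 in the other groups. That group therefore weighs heavily in all correlations below. The correlation of a member with the mean of the other tested members had a median of 0.886, was over 0.8 in 56 members and under 0.5 in 9, and these points share the same 36 libraries and their scaling. The 9 were Rps27l (-0.46), Rpl7l1 (-0.13), Rps2 (-0.02), Rpl7a (0.23), Rpl41 (0.26), Rpl10 (0.37), Rpl22l1 (0.38), Rpsa (0.43) and Rplp1 (0.46). All 3 tested paralogues were thus among the least like the rest, and Rpl18 (0.983) and Rps23 (0.982) were the most like it. Among 9681 other genes that averaged 10 CPM or more, the profiles most like the members' mean over the 12 groups were those of Tlr2 (r = 0.941), a receptor of innate immunity, and Rack1 (r = 0.937), a protein of the small subunit that the symbol rule leaves out.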

How the data were processed

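The authors deposited 1 table per library with an expected count for each of 45232 mouse genes. STAR 2.4.2a, featureCounts 1.4.3 and mm10 are named, without roles, in the submitters' processing notes, and libraries were stranded mRNA libraries per the labels' protocols. The strand setting and the treatment of reads that fit several places are not given in the sources used here. The deposited counts lay within 3.03e-09 of whole numbers and were rounded, and 69.7% of values from 1 to 20 were even. GENCODE M21 gave symbols for 44585 IDs.

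edgeR 4.0.16 (R 4.3.3) was run on all 12 groups with TMM scaling (factors 0.938 to 1.08), filterByExpr with a minimum count of 10, robust quasi-likelihood fits and Benjamini-Hochberg adjustment over 18176 genes in each of 21 comparisons, with a threshold of 0.05. Levels are TMM-scaled CPM, and a standard error is the size of the log2 fold change over the root of F. The fit was tested on simulated data. DESeq2 1.42.0, RLE and total-count scaling, other filters, fits on the compared groups alone, a replicate block and fits without each library were alternatives, and removal of a transcript length trend was added after seeing the data. Examples in each comparison were the members with the smallest p in each direction, with the paralogues, the stalk genes, Rpl5 and Rpl11; Rpl28, Rps27, Rps6 and other members outside this rule were chosen after their values were seen. A few genes that the rule or a list names are not reported here by name. The members and lists were chosen with earlier results of these data known.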

Additional observations from a re-analysis of the deposited data

Results flagged for a closer look

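In 5 comparisons the change of a construct since day 0 differed from that of EV organoids in at least 1 ribosomal protein gene, by the test of the difference between the changes (edgeR, adjusted over all genes). Lower than the change of EV were 79 members in R219S, 3 in FE255del and 14 in WT organoids at day 1, beside 23.3, 22.9 and 23.8% of all tested genes in that order, and 9 in R219S and 14 in WT organoids at day 11, beside 14.7 and 10.5%. Out of 80 tested members, 3 in FE255del and 14 in WT at day 1 and 9 in R219S at day 11 were below the share of all genes.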

How the results depend on the processing

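Named genes that passed in the main fit kept their direction: of 2142 values of 138 gene results under other settings, 1937 also kept their side of the threshold, 205 no longer passed and 0 turned. Members that did not pass in the main fit were left out of this tally. Most settings used nearly the same libraries, so a turn was unlikely in advance. In R219S at day 1 the members that fell against EV numbered 69 with RLE, 71 with total-count scaling, 70 with DESeq2 and 74 with the transcript length trend removed, and every other setting with all libraries gave values within this range. Without EV day 1 replicate 3 it was 65.
Counts that moved by over 1.5 times were, for members higher at day 0 in WT against EV (11), 42 with total-count scaling, 19 with a stricter filter, 51 on the compared groups and 34 without the length trend. For FE255del (3) it was 18 on the compared groups. For R219S (9) it was 5 with RLE, 5 with no filter, 5 with a stricter one, 17 on the compared groups and 4 without the length trend.
At day 1 the members lower in WT (15) numbered 9 with RLE, 5 with total-count scaling, 9 with no filter, 8 on the compared groups, 9 with DESeq2 and 25 without the length trend. Those higher in FE255del (11) numbered 17 with RLE, 48 with total-count scaling, 41 on the compared groups and 18 with DESeq2, and those higher in FE255del against WT (8) 14 without the length trend. The changes since day 0 gave, for WT (14 lower), 6, 4, 6, 7 and 31 with RLE, total count, no filter, DESeq2 and no length trend, and for FE255del (3 lower) 1 with total count.
At day 11 the members lower in WT (17) were 29 without the length trend, those higher in FE255del (6) 16 with total count, and those lower in R219S (2) 19 with total count, 0 on the compared groups and 17 without the length trend. Against WT, those higher in FE255del (15) were 6 on the compared groups and 33 without the length trend, and in R219S (14) 6, 9 and 3 with total count, no filter and the compared groups. Changes since day 0 gave 27, 26, 43 and 42 for WT (14 lower) with total count, stricter filter, compared groups and no length trend, and 21 and 1 for R219S (9 lower) with total count and compared groups. The cause was not tested.
Same-numbered replicates showed no clear shared deviation (correlations -0.28 to 0.16), and the samples were fitted unpaired. These correlations cannot exclude a shared handling of same-numbered samples. A replicate block gave 25 members higher in FE255del against WT at day 11 and 15 lower in the R219S change to day 11. It moved no other count by over 1.5 times.
Leaving out each library in turn gave these numbers of members, with the opposite direction in parentheses where any member passed in it: 1 to 12 higher for WT against EV at day 0, 2 to 4 higher for FE255del against EV at day 0, 3 to 9 higher for R219S against EV at day 0, 8 to 20 lower (4 to 11 higher) for WT against EV at day 1, 5 to 16 higher (4 to 9 lower) for FE255del against EV at day 1, 65 to 74 lower for R219S against EV at day 1, 7 to 22 lower (0 to 3 higher) for WT against EV at day 11, 2 to 10 higher (0 to 1 lower) for FE255del against EV at day 11, 1 to 22 lower (0 to 3 higher) for R219S against EV at day 11, 5 to 18 higher (1 to 2 lower) for FE255del against WT at day 1, 60 to 72 lower (2 to 2 higher) for R219S against WT at day 1, 3 to 32 higher for FE255del against WT at day 11, 4 to 31 higher (1 to 14 lower) for R219S against WT at day 11, 0 to 0 lower for EV at day 1 against day 0, 37 to 57 higher (3 to 3 lower) for EV at day 11 against day 0, 4 to 18 lower (0 to 1 higher) for WT change since day 0 at day 1, 2 to 4 lower (0 to 1 higher) for FE255del change since day 0 at day 1, 70 to 80 lower for R219S change since day 0 at day 1, 5 to 22 lower (0 to 1 higher) for WT change since day 0 at day 11, 0 to 0 lower for FE255del change since day 0 at day 11 and 4 to 43 lower for R219S change since day 0 at day 11.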
